A study of Homo sapiens with 9 samples.

Results

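The genes described here are 38 members of the amino acid and unfolded protein stress response, taken by gene symbol from a list, out of 58233 genes in the tables and 17880 that passed the filter on low counts. All 38 were found once in each table and all 38 passed the filter, so none was left out. They were divided into an ATF4 arm of 23 genes and an arm of the endoplasmic reticulum (ER) of 15 genes. The ATF4 arm holds 8 regulators, 3 stress effectors, 10 enzymes of amino acid and one-carbon metabolism and 2 subunits of amino acid transporters. The ER arm holds 4 genes of the sensors of unfolded protein and their transcription factors, 3 genes of ER-associated degradation and 8 genes of protein folding.

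The cells were TC32, an established line from Ewing sarcoma, grown in medium with serum and sequenced as polyadenylated RNA, with 3 libraries in each of 3 groups. Vehicle cells had PBS for 4 h and then DMSO for 24 h. Wnt3a cells had the ligand for 4 h and then DMSO for 24 h. The group called inhibitor below had Wnt3a for 4 h and then, for 24 h, SB-505124, which blocks the type I receptor kinases of TGF-β and activin. Whether the ligand stayed in the medium during the last 24 h is not given in the labels. No group had the inhibitor without Wnt3a, so an action of the inhibitor and one that needs Wnt3a cannot be told apart. Nothing in the labels says that replicates were separate cultures, so p-values measure only how these libraries spread, and that spread may be technical. As a model this is 1 cell line.

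Cells read a shortage of amino acids, or unfolded protein in the ER, through kinases that phosphorylate the translation factor eIF2α. This lowers translation in general but favours that of ATF4, a transcription factor that induces genes for the making and uptake of amino acids, its own partners, and the regulators DDIT3 (CHOP) and TRIB3. PPP1R15A (GADD34) brings a phosphatase to eIF2α and ends the signal. In the ER itself the sensors of unfolded protein are the kinase PERK (EIF2AK3), the kinase and nuclease IRE1 (ERN1), which splices the XBP1 message, and ATF6, which is cut in the Golgi to free a transcription factor. ATF6 and XBP1 induce chaperones, disulfide isomerases and the machinery that removes misfolded proteins. Message levels do not show whether ATF4 was translated, XBP1 spliced or ATF6 cut.

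Known sequence elements of both pathways were searched for in the members' promoters. They are shown here as a description. Genes that share an element went both ways in inhibitor against Wnt3a, with the limits given for those genes below. So did all genes tested, of which 24.5% rose and 25.9% fell, so this is not particular to the elements. Windows from 250 bases before to 50 bases after the start, from RefSeq on GRCh38.p14, were found for 34 of the 38 members, 19 of the ATF4 arm and all 15 of the ER arm, and not for SHMT2, PSPH, NUPR1 and ALDH1L2. Both strands were searched. The core of the amino acid response element, TGATGNAA, was in 4 of 19 genes of the ATF4 arm (ASNS, CEBPG, CHAC1 and SLC3A2), in 1 of 15 of the ER arm (HERPUD1) and in 1217 of 27305 genes with a window (4.46%). The site of SLC3A2 lies after the start. Those of ASNS, CEBPG, CHAC1 and HERPUD1, all before the start, follow, with the element in capitals (in CHAC1 and HERPUD1 on the opposite strand, as TTGCATCA) and each sequence read along its gene's strand. In GENCODE 29 the sites of ASNS and CHAC1 lie within an exon, and those of CEBPG and HERPUD1 do not.
ASNS at chr7:97872458-97872487, minus strand: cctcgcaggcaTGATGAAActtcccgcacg
CEBPG at chr19:33374060-33374089, plus strand: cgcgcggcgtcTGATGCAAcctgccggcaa
CHAC1 at chr15:40953251-40953280, plus strand: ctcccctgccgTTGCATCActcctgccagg
HERPUD1 at chr16:56931955-56931984, plus strand: gacgcggcgggTTGCATCAgcccgtgccca

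For the ER arm the search was for the ER stress response element, CCAAT and CCACG with 9 bases between them, and for its second form, ATTGG and CCACG with 1 base between them. The first form was in 5 of 15 genes (CALR, CANX, CRELD2, PDIA6 and XBP1), in 0 of 19 of the ATF4 arm and in 25 of 27305 genes (0.0916%). The second form was in 3 of 15 (HERPUD1, HYOU1 and SDF2L1), in 0 of 19 and in 19 of 27305 (0.0696%). Together 8 of 15 genes of the ER arm held one or the other. The element TGACGTGG, bound by XBP1, was found in HYOU1 alone of the members and in 253 of 27305 genes (0.927%). A match is a description of letters and not a binding site, and a window without a match may hold another form. The elements are known ones of the pathways for which the members were listed. The members' shares beside that of all genes are therefore no independent result. The sites follow, before the start except that the site of CANX spans 1 of the 3 starts whose windows hold it, with both parts of an element and the bases between them in capitals. They are read along the gene's strand, and in CRELD2, CALR, SDF2L1 and HYOU1 the element lies on the opposite strand. The site of CANX lies within an annotated exon and the others do not.
XBP1 at chr22:28800598-28800626, minus strand: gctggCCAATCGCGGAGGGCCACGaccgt
HERPUD1 at chr16:56932016-56932044, plus strand: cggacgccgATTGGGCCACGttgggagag
PDIA6 at chr2:10812848-10812876, minus strand: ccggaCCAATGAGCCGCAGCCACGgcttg
CRELD2 at chr22:49918549-49918577, plus strand: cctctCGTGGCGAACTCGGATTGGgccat
SDF2L1 at chr22:21642105-21642133, plus strand: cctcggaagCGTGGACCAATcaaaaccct
CALR at chr19:12938379-12938407, plus strand: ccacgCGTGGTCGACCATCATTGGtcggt
CANX at chr5:179698773-179698801, plus strand: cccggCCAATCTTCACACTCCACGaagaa
The window of HYOU1 holds the second form at 2 places, and the first of them overlaps TGACGTGG, so that this run of capitals joins both motifs.
HYOU1 at chr11:119057254-119057413, minus strand: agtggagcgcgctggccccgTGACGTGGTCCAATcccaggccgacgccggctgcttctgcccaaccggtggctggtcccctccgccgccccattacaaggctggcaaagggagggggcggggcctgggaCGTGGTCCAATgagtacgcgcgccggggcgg

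Levels between genes were compared in TPM, a share of all transcripts that corrects for length. In vehicle cells (mean ± SD, n = 3) the most abundant member was CALR, the calcium-binding chaperone calreticulin, at 773 ± 28.5 TPM, followed by ATF4 at 451 ± 24.5 TPM. Next came SLC3A2 at 357 ± 28.1 TPM and SLC7A5 at 275 ± 44.9 TPM, the heavy and light chains of a transporter of large neutral amino acids. At the low end were ERN1 at 1.69 ± 0.362 TPM and STC2, a secreted glycoprotein, at 1.33 ± 0.267 TPM. Neighbours in this order often lay within their spread, such as PHGDH at 259 ± 20.4, CANX at 241 ± 29.2 and PDIA6 at 236 ± 11.3 TPM.

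Summed over its 23 genes, the ATF4 arm took 2143 to 2387 TPM in vehicle, 2170 to 2718 with Wnt3a and 2567 to 2708 with the inhibitor, ranges that overlap between Wnt3a and the inhibitor. The 15 genes of the ER arm took 1619 to 1773 TPM in vehicle, 1523 to 1639 with Wnt3a and 1337 to 1396 with the inhibitor, where the libraries lay below all the others. On log2(TPM + 1) the median log2 fold change of all genes, inhibitor against Wnt3a, was -0.23. Whether the ER sum fell beyond that general shift was not tested. CALR, the most abundant member, went from a mean of 672 TPM with Wnt3a to 577 with the inhibitor. It did not fall on scaled counts, as given below. Most of the ER sum came from the folding genes, with means of 1582 ± 61.7, 1445 ± 48.3 and 1179 ± 50.5 TPM (SD, n = 3) in vehicle, Wnt3a and inhibitor. The 4 genes of the sensors and their transcription factors went the other way, from 54.6 ± 7.3 and 55.1 ± 4.77 TPM to 100.4 ± 7.51 with the inhibitor. Of these sums XBP1 took means of 27.4, 26.4 and 60.2 TPM.

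Wnt3a was first set against vehicle, to see what the ligand does to these genes. None of the 38 members passed the threshold of an edgeR adjusted p of 0.05 in either direction, and DESeq2 called 0 as well. An unadjusted edgeR p under 0.05 was found for 5 of the 38, 4 of them folding genes, and for 1362 of 17880 genes. Over all genes tested 71 were called higher, which is 0.397%, and 4 lower, which is 0.0224%, so a count of 0 among 38 is close to that background. The median log2 fold change was -0.14 in the ATF4 arm and -0.08 in the ER arm, beside 0.01 over all genes. The member with the smallest adjusted p was MANF, a secreted factor of the ER, at 69.4 ± 2.19 CPM (counts scaled to the library's depth with TMM factors, mean ± SD, n = 3) in vehicle and 57.2 ± 4.8 with Wnt3a (log2 fold change -0.28, SE 0.096, edgeR adjusted p = 0.456). All 8 regulators of the ATF4 arm had estimates below 0, from -0.81 for CEBPB to -0.07 for PPP1R15A, and none passed. Estimates below 0 were also found for 7 of the 8 folding genes (median -0.22) and for 8602 of 17880 genes. These signs were not tested as a set.

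CEBPB, a bZIP partner of ATF4, had 31.5, 35.4 and 38.8 CPM in vehicle, 10.3, 20.8 and 29.1 under Wnt3a, and 9.9, 19.4 and 22.4 under the inhibitor. Wnt3a replicate 1 was the lowest of its group, and vehicle and Wnt3a libraries did not overlap, but the difference did not pass (log2 fold change -0.81, SE 0.357, edgeR adjusted p = 0.638). AXIN2, a direct target of Wnt signalling, rose from 3.28 ± 0.326 to 20.1 ± 2.81 CPM (log2 fold change 2.61, SE 0.157, edgeR adjusted p = 0.000119). With the inhibitor AXIN2 was called higher again than with Wnt3a (log2 fold change 0.63).

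**Figure D1:**
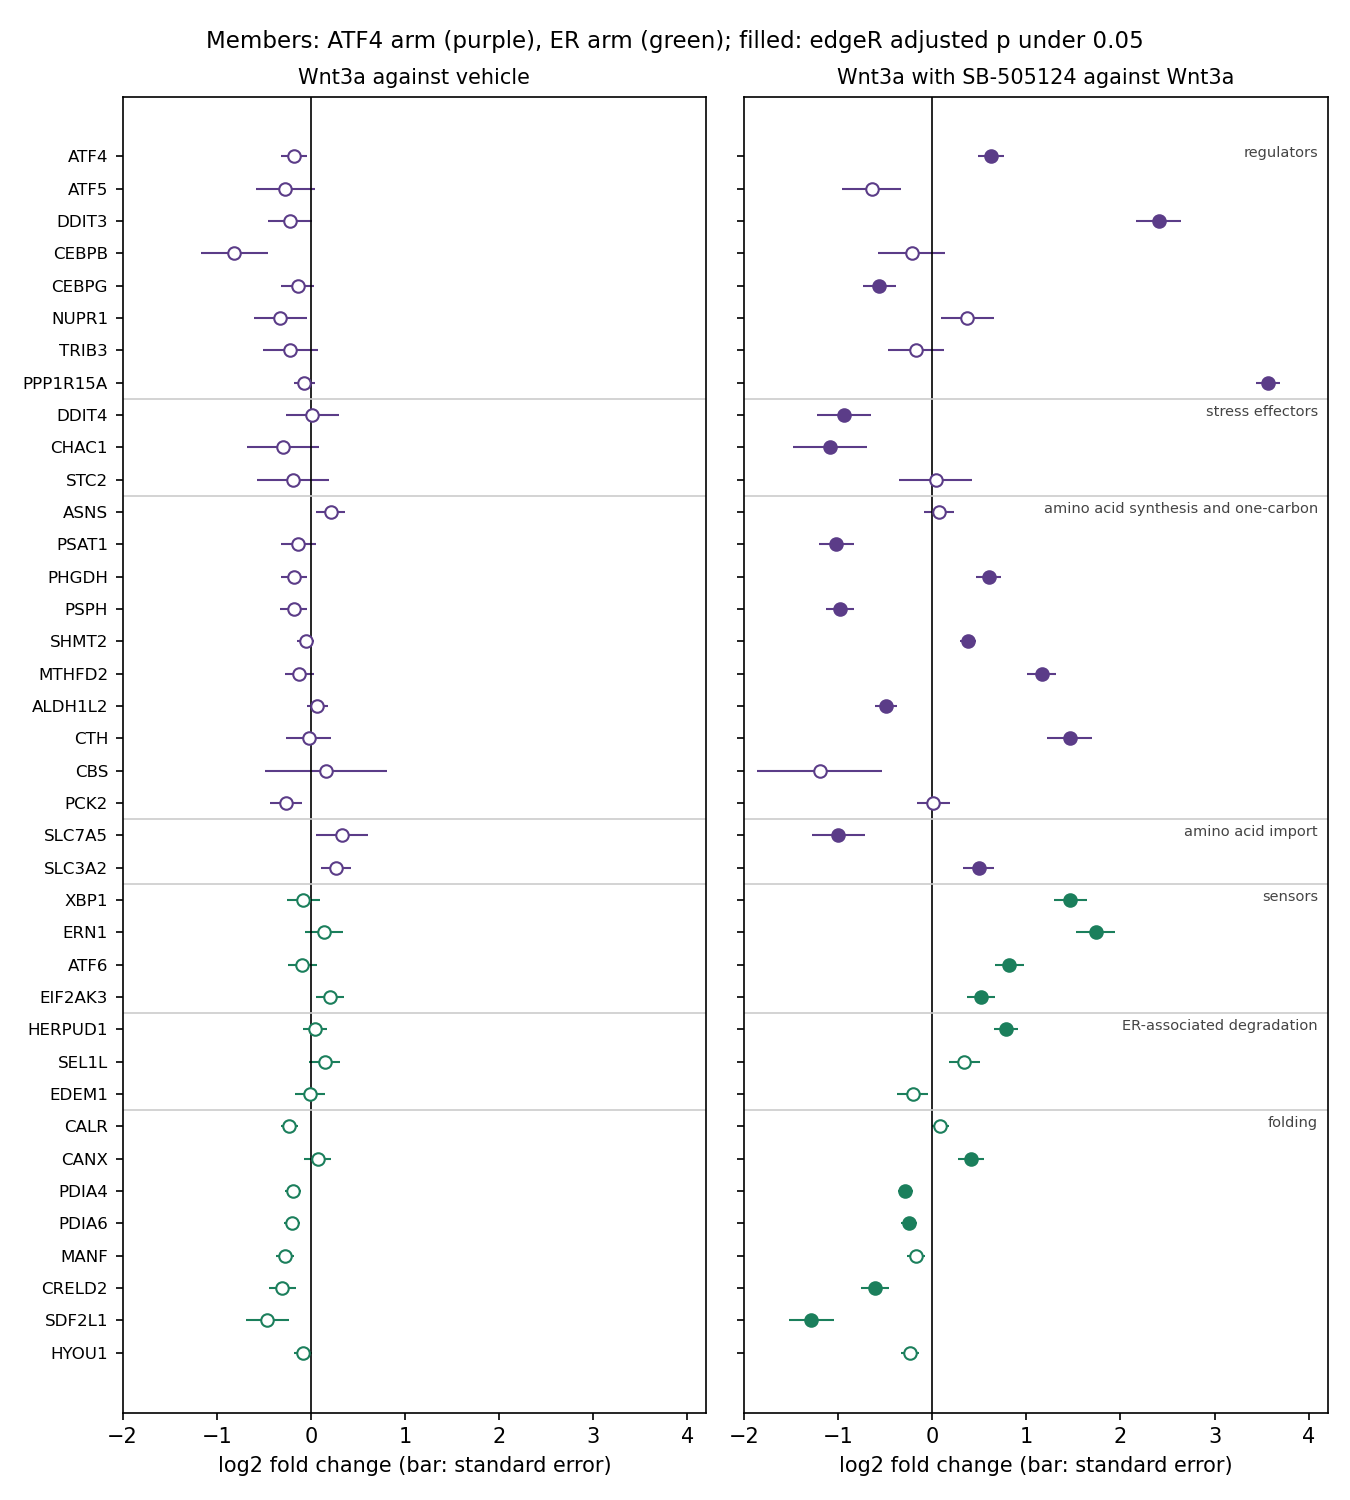
Each point is 1 of the 38 members, with its log2 fold change on the x axis and its standard error as a bar, for Wnt3a against vehicle on the left and inhibitor against Wnt3a on the right. Filled points passed an edgeR adjusted p of 0.05; there are 0 on the left and 25 on the right, and the filled points of each arm lie on both sides of 0.

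Within the vehicle and Wnt3a groups, many members of the ATF4 arm divided the libraries in a way that did not match the groups. TRIB3, a pseudokinase that ATF4 and DDIT3 induce, had 66.1, 36.9 and 65.6 CPM in vehicle replicates 1 to 3 and 38.7, 33.7 and 72.5 with Wnt3a. Vehicle replicates 1 and 3 and Wnt3a replicate 3 were high and the other 3 libraries low, with no overlap. ATF5, a relative of ATF4, had 185, 113 and 178 CPM in vehicle and 108, 93.6 and 193 with Wnt3a. PSAT1, the aminotransferase of serine synthesis, had 219, 159.8 and 217 and 174, 151 and 218 CPM in the same order. Both had the same 3 libraries high and the same 3 low as TRIB3.

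In 11 of 23 genes of the ATF4 arm (47.8%) vehicle replicates 1 and 3 and Wnt3a replicate 3 all lay above vehicle replicate 2 and Wnt3a replicates 1 and 2. The same held for 6 of 15 genes of the ER arm (40%), among them SEL1L, EDEM1 and ERN1, and for 2843 of 17880 genes (15.9%). This way of dividing the libraries was chosen after their values were seen. It is therefore no test of the arms against all genes and no comparison of the study. ATF4 itself did not follow it, with 417, 466 and 416 CPM in vehicle and 393, 377 and 380.2 with Wnt3a. SLC7A5 did not either, with 826, 655 and 886 CPM in vehicle and 728, 890.5 and 1359 with Wnt3a, although Wnt3a replicate 3 was its highest library.

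**Figure D2:**
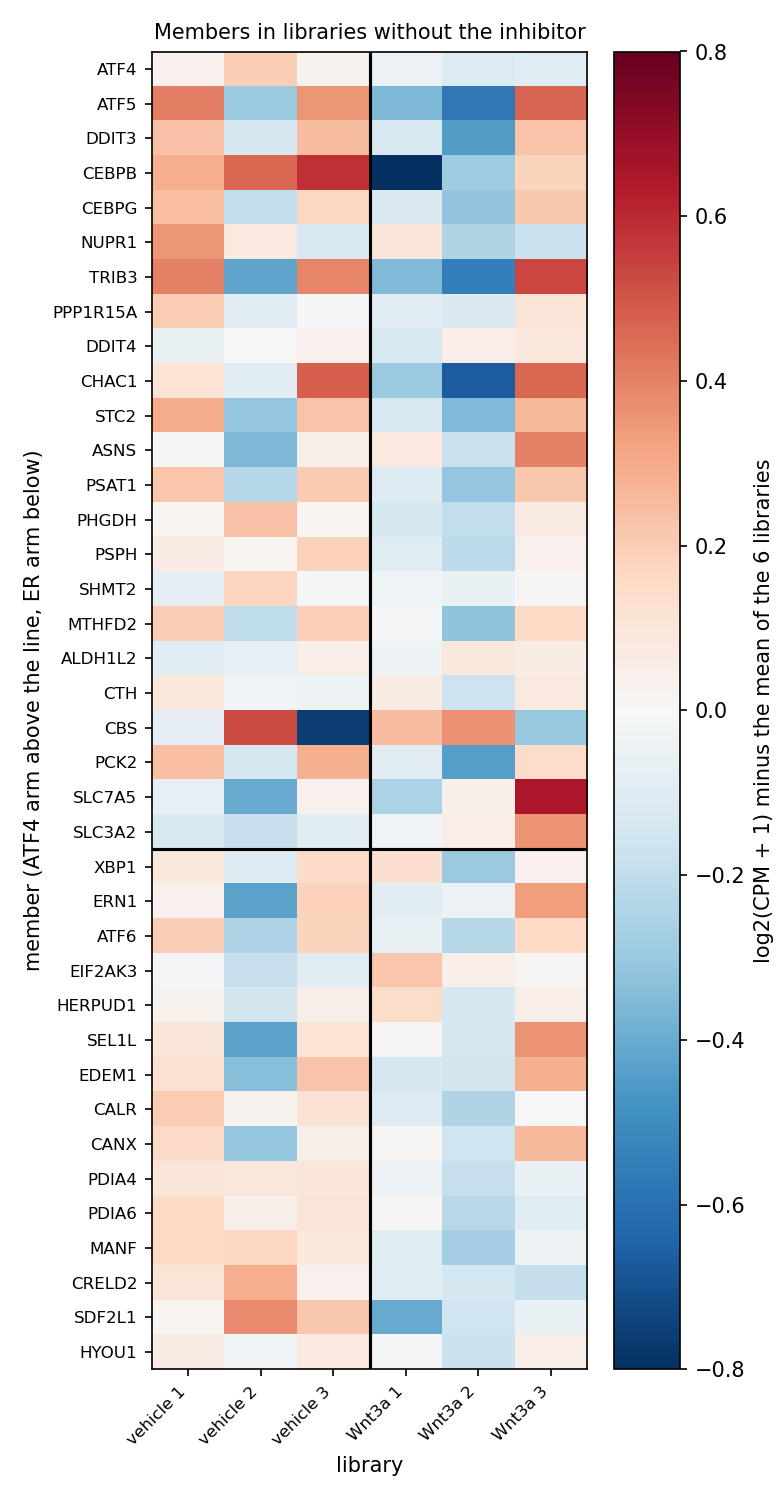
Rows are the members and columns the 6 libraries without the inhibitor, and colour gives log2(CPM + 1) minus the mean of the 6, capped at 0.8 on either side. Vehicle replicates 1 and 3 and Wnt3a replicate 3 are red, and vehicle replicate 2 and Wnt3a replicate 2 blue, in TRIB3, ATF5, PSAT1 and MTHFD2, while ATF4 is not.

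Inhibitor was then set against Wnt3a, to see how these genes differ when SB-505124 is added to cells given the ligand. Both arms held genes that rose and genes that fell, as did all genes tested. Of the 23 genes of the ATF4 arm 8 rose and 7 fell, and of the 15 of the ER arm 6 rose and 4 fell. Over all genes tested 24.5% rose and 25.9% fell in this comparison, and the members' shares, 14 higher and 11 lower of 38, are read against that. A split into rises and falls is therefore not particular to these arms. The median log2 fold change was 0.01 in the ATF4 arm and 0.09 in the ER arm, beside -0.06 over all genes. With library totals in place of TMM factors the median of all genes moved to -0.31, and of the called genes 30.6% were higher in place of 48.6%. On that scaling the ATF4 arm had 5 higher and 8 lower, and the ER arm 4 higher and 7 lower. With limma-trend on log2(TPM + 1) the median of all genes was -0.23, of the called genes 26.5% were higher, and the arms had 4 higher and 9 lower (ATF4) and 4 higher and 8 lower (ER).

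PPP1R15A, the regulatory subunit that directs dephosphorylation of eIF2α, had the largest change. Its counts were 44.4, 36 and 38.2 CPM in vehicle, 36.1, 35.5 and 41.5 under Wnt3a, and 425, 499 and 418 under the inhibitor. Each inhibitor library lay far above the other 6, an 11.9-fold difference from Wnt3a (log2 fold change 3.57, SE 0.125, edgeR adjusted p = 3.82e-07). In GENCODE 29 (hg38) it spans 48872392 to 48876057 of chromosome 19.

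DDIT3, which encodes the bZIP factor CHOP, had 30.6, 23.5 and 31 CPM in vehicle, 23.7, 18.7 and 30.5 under Wnt3a, and 175, 109.6 and 103 under the inhibitor. It rose 5.31-fold (log2 fold change 2.41, SE 0.24, edgeR adjusted p = 3.71e-05), and replicate 1 was the highest of the inhibitor libraries. DDIT3 lies on chromosome 12, and in GENCODE 29 39.6% of its exon bases are shared with other genes, among them MARS on the other strand. The strand setting of the counting is not given in the sources used here. MARS, the methionyl-tRNA synthetase, moved the opposite way, from 231 ± 17.3 to 114 ± 2.86 CPM (log2 fold change -1.02, SE 0.0998, edgeR adjusted p = 3.28e-05).

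ATF4 had 417, 466 and 416 CPM in vehicle, 393, 377 and 380.2 under Wnt3a, and 743, 516 and 512 under the inhibitor, so that the 3 inhibitor libraries were above the other 6 and replicate 1 stood highest. It rose 1.54-fold (log2 fold change 0.62, SE 0.139, edgeR adjusted p = 0.00418). The rise did not pass with library totals (edgeR adjusted p = 0.0564) or in limma-trend on log2(TPM + 1) (adjusted p = 0.134).

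The other regulators did not follow. CEBPG, a bZIP partner that dimerises with ATF4, had 77.4, 57 and 73.5 CPM in vehicle, 60.4, 52.4 and 76.2 under Wnt3a, and 51.2, 38.1 and 38.8 under the inhibitor. CEBPG fell (log2 fold change -0.56, SE 0.175, edgeR adjusted p = 0.0218). Its call was lost without Wnt3a replicate 3, or without inhibitor replicate 2 or 3 (edgeR adjusted p 0.0802 to 0.0853). TRIB3 had 36.5, 46.4 and 45.6 CPM with the inhibitor, inside the range of the Wnt3a libraries (log2 fold change -0.17, SE 0.296, edgeR adjusted p = 0.651). ATF5 had 54.4, 93.4 and 105 CPM with the inhibitor and overlapped Wnt3a (log2 fold change -0.64, SE 0.315, edgeR adjusted p = 0.113). CEBPB did not pass either (log2 fold change -0.22, SE 0.358, edgeR adjusted p = 0.633). NUPR1, a small stress-induced nuclear protein, was low at 2.2, 2.64 and 1.79 CPM (log2 fold change 0.37, SE 0.284, edgeR adjusted p = 0.296). ATF5 passed as lower with genes of at least 1 count kept (edgeR adjusted p = 0.00558), with library totals (0.0296) and on the TPM scale (limma-trend adjusted p = 0.0262).

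Stress effectors of the arm fell or did not pass. CHAC1, which breaks down glutathione, has a match to TGATGNAA in its promoter window. CHAC1 had 12.6, 10.8 and 16.5 CPM in vehicle, 9.22, 6.94 and 16.3 under Wnt3a, and 2.5, 5.68 and 7.09 under the inhibitor. All 3 inhibitor libraries were low, but Wnt3a replicate 2 was below inhibitor replicate 3, and the groups overlapped (log2 fold change -1.08, SE 0.393, edgeR adjusted p = 0.042). The call was lost when any library was left out other than Wnt3a replicate 2 or inhibitor replicate 3 (edgeR adjusted p 0.0501 to 0.174), and with only the 2 groups compared (0.0654). DDIT4 (REDD1), an inhibitor of mTORC1, had 12.1, 12.5 and 12.9 CPM in vehicle, 11.5, 13.1 and 13.4 under Wnt3a, and 3.22, 8.42 and 8.05 under the inhibitor. DDIT4 fell (log2 fold change -0.94, SE 0.288, edgeR adjusted p = 0.0203), a call lost without Wnt3a replicate 2 (edgeR adjusted p = 0.0544). Of its exon bases 41.2% are shared with the antisense gene DDIT4-AS1. STC2 had 2.93 ± 0.873 CPM with Wnt3a and 3.02 ± 1.59 with the inhibitor (log2 fold change 0.04, SE 0.387, edgeR adjusted p = 0.943).

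**Figure D3:**
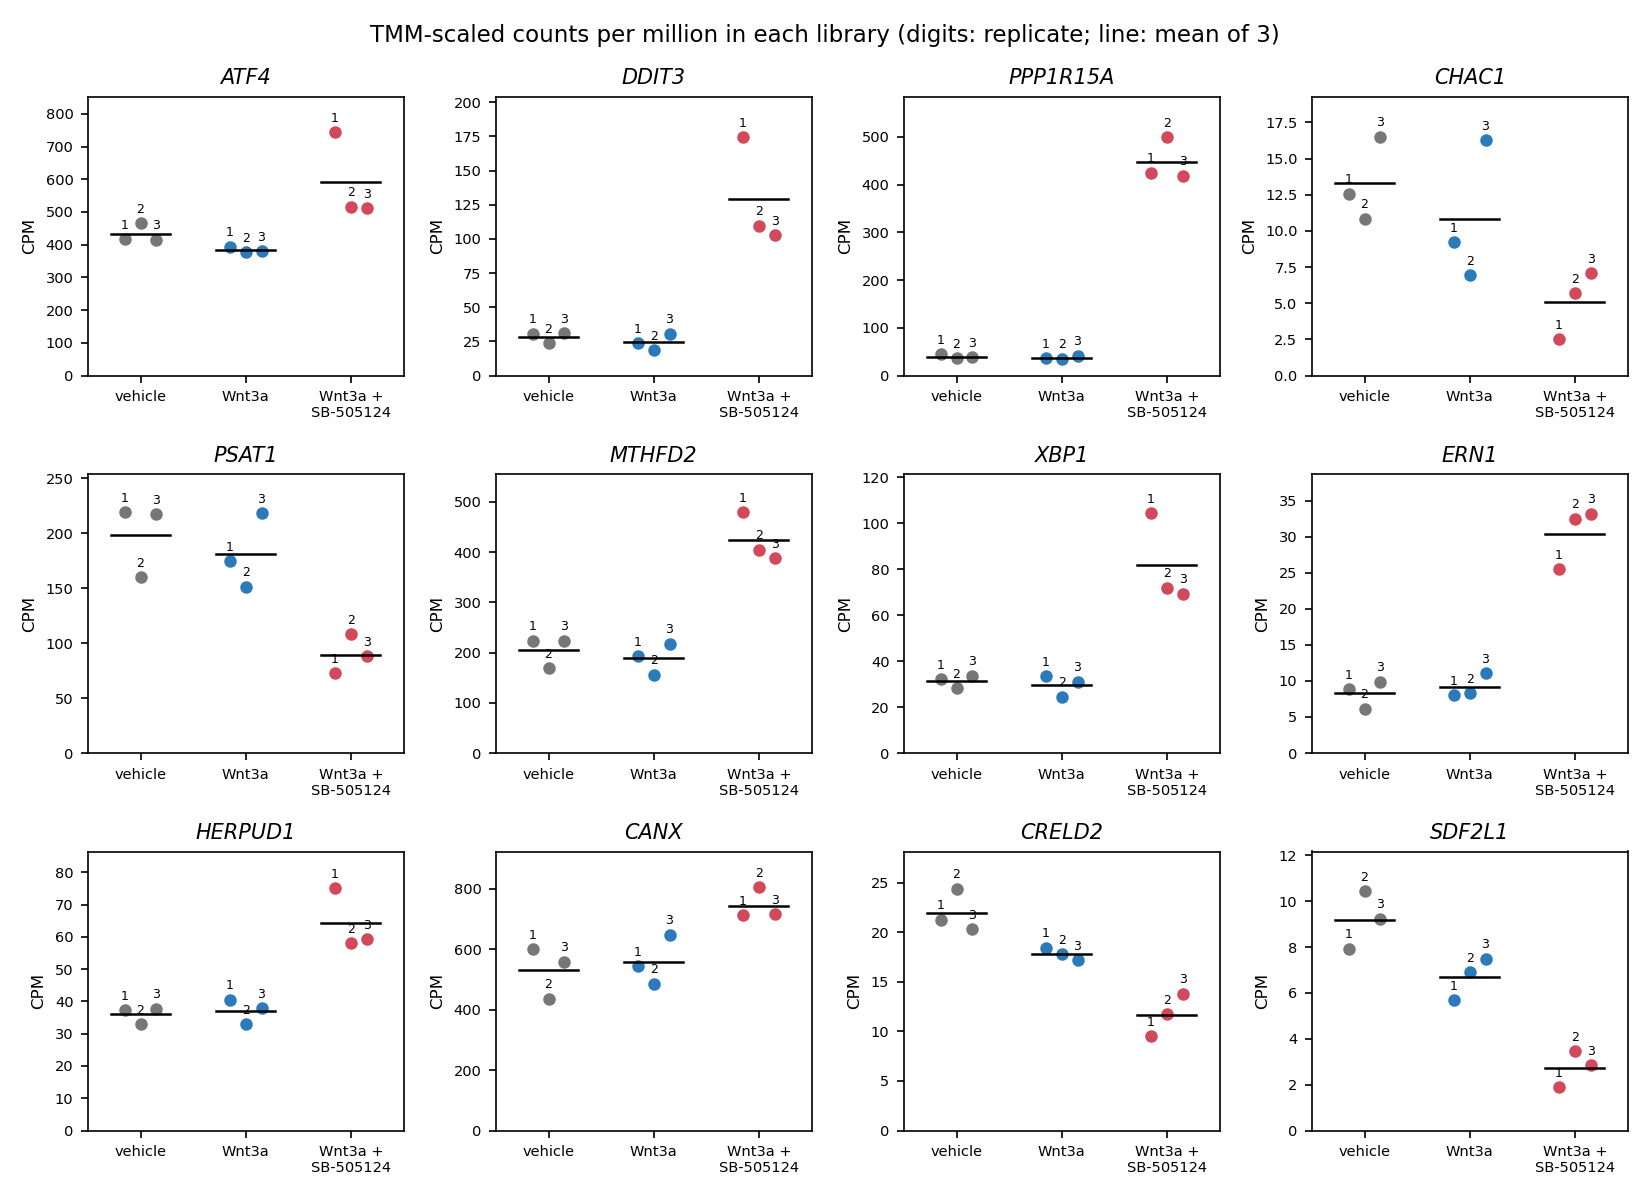
Each panel is 1 member, with TMM-scaled CPM from 0 on the y axis, the 3 groups on the x axis, a point per library with its replicate number, and a line at the mean of 3. PPP1R15A, DDIT3, ERN1 and XBP1 are higher in every inhibitor library than in any other, SDF2L1, CRELD2 and PSAT1 lower, and CHAC1 overlaps between Wnt3a and the inhibitor.

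Serine is made from a glycolytic intermediate in consecutive steps, and the genes for these divided. PHGDH, the dehydrogenase of the first step, had 315, 366 and 315 CPM in vehicle, 282, 271 and 326 under Wnt3a, and 356, 498 and 478 under the inhibitor. It rose (log2 fold change 0.60, SE 0.136, edgeR adjusted p = 0.00459), and every inhibitor library was above every Wnt3a library, although vehicle replicate 2 was above inhibitor replicate 1. PSAT1, the next step, had 72.8, 108 and 88 CPM with the inhibitor, all below the 6 other libraries, and fell 2.02-fold (log2 fold change -1.02, SE 0.186, edgeR adjusted p = 0.00129). PSPH, the phosphatase of the last step, had 29.5, 28.5 and 32.1 CPM in vehicle, 26.3, 24.2 and 28.8 under Wnt3a, and 10.6, 14 and 15.5 under the inhibitor. PSPH fell 1.97-fold (log2 fold change -0.98, SE 0.146, edgeR adjusted p = 0.000391), again below all other libraries. The rise of PHGDH did not pass on the TPM scale (limma-trend adjusted p = 0.169), while the falls of PSAT1 and PSPH passed in all 16 alternatives tried.

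The mitochondrial one-carbon enzymes divided as well. MTHFD2, a dehydrogenase and cyclohydrolase of folate, had 224, 169 and 224 CPM in vehicle, 193, 156 and 218 under Wnt3a, and 479.9, 404 and 388 under the inhibitor. It rose 2.24-fold (log2 fold change 1.17, SE 0.154, edgeR adjusted p = 0.000187), and the inhibitor libraries lay above all others. SHMT2, which makes glycine from serine, had 212, 253 and 222 CPM in vehicle, 219, 216 and 226 under Wnt3a, and 284, 289 and 285 under the inhibitor (log2 fold change 0.38, SE 0.0864, edgeR adjusted p = 0.00469), a rise that did not pass with library totals (edgeR adjusted p = 0.238) or on the TPM scale (limma-trend adjusted p = 0.478). ALDH1L2, which oxidises formyl-folate, had 39.4, 40.2 and 43.6 CPM in vehicle, 41, 44.6 and 43.8 under Wnt3a, and 28.5, 35.9 and 27.7 under the inhibitor. ALDH1L2 fell (log2 fold change -0.49, SE 0.115, edgeR adjusted p = 0.00537).

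CTH, the lyase that makes cysteine from cystathionine, had 2.53, 2.28 and 2.23 CPM in vehicle, 2.46, 1.96 and 2.5 under Wnt3a, and 8.42, 5.44 and 5.24 under the inhibitor. The inhibitor libraries were each above the 6 others, and it rose 2.75-fold (log2 fold change 1.46, SE 0.239, edgeR adjusted p = 0.000687). CBS, the enzyme before it, cannot be read alone. Its near-identical copy CBSL took most of the counts, a mean of 95.7 CPM over all libraries against 5.03 for CBS, and the share between them rests on how reads were divided. CBS had 5.51, 8.81 and 3.04 CPM in vehicle, 7.09, 7.81 and 4.53 under Wnt3a, and 2.47, 0.456 and 5.56 under the inhibitor (log2 fold change -1.20, SE 0.667, edgeR adjusted p = 0.16). It was called lower without inhibitor replicate 3 (log2 -2.17, edgeR adjusted p = 0.0288), with genes of at least 1 count kept (0.0171) and on the TPM scale (limma-trend adjusted p = 0.05 when rounded). CBSL fell from 99.7 ± 5.2 to 66.2 ± 7.79 CPM (log2 fold change -0.59, SE 0.132, edgeR adjusted p = 0.0042).

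ASNS, asparagine synthetase and the best known target of the amino acid response element, had 84.7, 65.4 and 87.1 CPM in vehicle, 88.8, 74.2 and 112 under Wnt3a, and 97.9, 101 and 90.2 under the inhibitor, where the inhibitor libraries lay above vehicle but overlapped Wnt3a (log2 fold change 0.07, SE 0.156, edgeR adjusted p = 0.72). In GENCODE 29 44.6% of its exon bases are shared with a gene on the same strand. PCK2, the mitochondrial carboxykinase, had 21.4 ± 4.5 CPM with Wnt3a and 21.6 ± 1.3 with the inhibitor (log2 fold change 0.01, SE 0.171, edgeR adjusted p = 0.956). Of the 10 enzymes, then, 4 rose (PHGDH, SHMT2, MTHFD2 and CTH), 3 fell (PSAT1, PSPH and ALDH1L2) and 3 did not pass (ASNS, PCK2 and CBS, the last called in 3 alternatives).

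The chains of the amino acid transporter went opposite ways. SLC7A5, the light chain (LAT1) that carries the substrate, had 313, 543 and 636 CPM with the inhibitor, each below the lowest Wnt3a library at 728 CPM, and fell 2-fold (log2 fold change -0.997, SE 0.278, edgeR adjusted p = 0.013). SLC3A2, the heavy chain shared with other transporters, had 335, 321 and 344 CPM in vehicle, 358, 378 and 468 under Wnt3a, and 424, 655 and 614 under the inhibitor. SLC3A2 rose (log2 fold change 0.49, SE 0.16, edgeR adjusted p = 0.0264), although inhibitor replicate 1 lay inside the Wnt3a range. Without Wnt3a replicate 3, its highest library, SLC7A5 did not pass (log2 -0.70, edgeR adjusted p = 0.05 when rounded). The rise of SLC3A2 was lost with library totals (edgeR adjusted p = 0.178), on the TPM scale (limma-trend adjusted p = 0.306), with only the 2 groups compared (edgeR adjusted p = 0.0581) and without Wnt3a replicate 1 or 2 or inhibitor replicate 2 or 3 (0.085 to 0.104).

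In the ER arm all 4 genes of the sensors and their transcription factors rose with the inhibitor. ERN1 had 8.82, 6.12 and 9.9 CPM in vehicle, 8.03, 8.27 and 11.1 under Wnt3a, and 25.5, 32.5 and 33.2 under the inhibitor. ERN1 rose 3.33-fold (log2 fold change 1.74, SE 0.205, edgeR adjusted p = 9.81e-05). XBP1, the factor whose message ERN1 splices, had 32.1, 28.1 and 33.7 CPM in vehicle, 33.3, 24.4 and 31 under Wnt3a, and 104, 71.9 and 69.4 under the inhibitor. XBP1 rose 2.77-fold (log2 fold change 1.47, SE 0.176, edgeR adjusted p = 0.000107). In both genes the inhibitor libraries lay above all others, with replicate 1 the lowest of them for ERN1 and the highest for XBP1. Gene-level counts do not separate spliced from unspliced XBP1.

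ATF6 had 123, 90.5 and 122 CPM in vehicle, 103, 91.7 and 120.0 under Wnt3a, and 164, 214 and 177 under the inhibitor, again with no overlap between the inhibitor and either other group (log2 fold change 0.82, SE 0.154, edgeR adjusted p = 0.0015). EIF2AK3 had 10.3, 9.01 and 9.74 CPM in vehicle, 12.3, 10.8 and 10.4 under Wnt3a, and 13.5, 18.6 and 15.9 under the inhibitor. EIF2AK3 rose less (log2 fold change 0.52, SE 0.148, edgeR adjusted p = 0.0147). This last rise was lost with library totals (edgeR adjusted p = 0.147), on the TPM scale (limma-trend adjusted p = 0.563) and without inhibitor replicate 2 (edgeR adjusted p = 0.0651). The other 3 passed in all 16 alternatives.

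Of the degradation genes HERPUD1, a membrane protein that organises the retrotranslocation complex, had 37.2, 32.9 and 37.7 CPM in vehicle, 40.5, 33 and 37.9 under Wnt3a, and 75.1, 58 and 59.3 under the inhibitor. HERPUD1 rose 1.73-fold (log2 fold change 0.79, SE 0.127, edgeR adjusted p = 0.00064), with the inhibitor libraries above all others. SEL1L, its partner and the adaptor of the ubiquitin ligase, had 93 ± 17.1 CPM with Wnt3a and 118 ± 7.53 with the inhibitor (log2 fold change 0.34, SE 0.165, edgeR adjusted p = 0.111), and passed as higher without Wnt3a replicate 3 (edgeR adjusted p = 0.0326) or vehicle replicate 2 (0.0496). EDEM1, which recognises trimmed mannose on misfolded glycoproteins, had 51.6 ± 9.37 and 44.7 ± 1.5 CPM (log2 fold change -0.21, SE 0.164, edgeR adjusted p = 0.317). It passed as lower with library totals (edgeR adjusted p = 0.0266) and on the TPM scale (limma-trend adjusted p = 0.0436).

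Of the 8 folding genes 1 rose and 4 fell. SDF2L1, a component of an ER chaperone complex, had 7.92, 10.4 and 9.23 CPM in vehicle, 5.67, 6.89 and 7.48 under Wnt3a, and 1.9, 3.47 and 2.84 under the inhibitor. The inhibitor libraries were the 3 lowest, and it fell 2.44-fold (log2 fold change -1.28, SE 0.238, edgeR adjusted p = 0.0014). CRELD2, an ER stress-inducible secretory protein, had 21.3, 24.4 and 20.3 CPM in vehicle, 18.4, 17.8 and 17.2 under Wnt3a, and 9.48, 11.7 and 13.8 under the inhibitor. CRELD2 fell 1.52-fold (log2 fold change -0.61, SE 0.147, edgeR adjusted p = 0.0063), also below all other libraries.

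The disulfide isomerases fell by little. PDIA4 had 181, 179 and 180.4 CPM in vehicle, 163, 148 and 163 under Wnt3a, and 138, 128 and 123 under the inhibitor (log2 fold change -0.29, SE 0.0824, edgeR adjusted p = 0.0153). PDIA6 had 390.5, 359 and 375 CPM in vehicle, 352, 299 and 327 under Wnt3a, and 278, 275 and 271 under the inhibitor (log2 fold change -0.25, SE 0.0852, edgeR adjusted p = 0.0348). In both the inhibitor libraries lay below the Wnt3a and vehicle libraries. The call of PDIA4 was lost without Wnt3a replicate 1 or 3 or inhibitor replicate 2 or 3 (edgeR adjusted p 0.0518 to 0.0681). That of PDIA6 was lost without any of the same 4 or vehicle replicate 3 (0.063 to 0.142), with RLE size factors (0.0504) and with genes of at least 1 count kept (0.0948).

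CANX, the membrane-bound lectin chaperone calnexin, had 601, 436 and 559 CPM in vehicle, 544, 485 and 648 under Wnt3a, and 712, 806 and 716 under the inhibitor. CANX rose (log2 fold change 0.41, SE 0.141, edgeR adjusted p = 0.032). This rise was lost with library totals (edgeR adjusted p = 0.266), on the TPM scale (limma-trend adjusted p = 0.823) and without Wnt3a replicate 1 or 2 or inhibitor replicate 2 or 3 (edgeR adjusted p 0.0549 to 0.118). Its soluble relative CALR had 622 ± 51.1 and 660.3 ± 31.1 CPM (log2 fold change 0.09, SE 0.0916, edgeR adjusted p = 0.457) and turned to a fall on the TPM scale (log2 -0.22, limma-trend adjusted p = 0.0299). MANF had 57.2 ± 4.8 and 50.8 ± 3.87 CPM (log2 fold change -0.17, SE 0.0963, edgeR adjusted p = 0.161), and HYOU1, a large ER chaperone of the HSP70 class, 132 ± 10.7 and 112 ± 9.5 (log2 fold change -0.24, SE 0.0963, edgeR adjusted p = 0.0625). Both passed as lower with library totals (edgeR adjusted p = 0.00228 and 0.000717) and on the TPM scale (limma-trend adjusted p = 0.000734 and 0.000359), and HYOU1 also without Wnt3a replicate 2 (edgeR adjusted p = 0.045).

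Genes that share an element went both ways, and over all genes tested 24.5% rose and 25.9% fell. Such a split is therefore not particular to these elements. Of the 8 genes of the ER arm with an ER stress response element in the windows printed above, XBP1, HERPUD1 and CANX rose, CRELD2, SDF2L1 and PDIA6 fell, and CALR and HYOU1 did not pass. Of the 4 genes of the ATF4 arm with TGATGNAA, SLC3A2 rose, CEBPG and CHAC1 fell and ASNS did not pass. HERPUD1 of the ER arm, which holds TGATGNAA as well, rose. The calls of XBP1, HERPUD1, CRELD2 and SDF2L1 passed in all 16 alternatives. Those of CANX, PDIA6, SLC3A2, CEBPG and CHAC1 were each lost in some, as given above. On the TPM scale SLC3A2 did not pass (limma-trend adjusted p = 0.306), so there none of the 4 genes of the ATF4 arm was called higher. On that scale CANX did not pass either (limma-trend adjusted p = 0.823), and CALR and HYOU1 were called lower (0.0299 and 0.000359). No test was made on these few genes.

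The comparison of inhibitor with vehicle shares the inhibitor libraries with the one above and is given beside it, not as a second observation. Of the ATF4 arm 8 were higher and 8 lower, and of the ER arm 7 and 6, where over all genes tested 25.0% were higher and 24.8% lower. Medians were -0.25 in the ATF4 arm and -0.14 in the ER arm, beside -0.04 over all genes. PPP1R15A had a log2 fold change of 3.50 against vehicle and 3.57 against Wnt3a, DDIT3 2.19 and 2.41, and SDF2L1 -1.74 and -1.28.

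Among the folding genes 6 of 8 were lower than in vehicle and 1 higher, with MANF (log2 -0.45, edgeR adjusted p = 0.00332) and HYOU1 (log2 -0.32, edgeR adjusted p = 0.0191) added to those lower than with Wnt3a. HYOU1 lost its call without vehicle replicate 1 or 3 (edgeR adjusted p = 0.0578 and 0.0705). SEL1L was called higher (log2 0.49, edgeR adjusted p = 0.0319), but not without vehicle replicate 2 or inhibitor replicate 2 or 3 (0.0692 to 0.0928), nor with library totals (0.157) or on the TPM scale (limma-trend adjusted p = 0.528). ATF5 (log2 -0.92, edgeR adjusted p = 0.0343) and CEBPB (log2 -1.03, edgeR adjusted p = 0.036) were called lower. ATF5 was not without vehicle replicate 1 or 3 or inhibitor replicate 1 or 2 (0.0629 to 0.103), nor CEBPB without any vehicle replicate, Wnt3a replicate 2 or inhibitor replicate 1 or 2 (0.0507 to 0.0947). SLC7A5 was not called (log2 -0.67, edgeR adjusted p = 0.069), but passed as lower in 8 of 16 alternatives. These were DESeq2 (adjusted p = 0.0336), limma-trend (0.017) and, in edgeR, library totals (0.0164), genes of at least 1 count kept (0.00241), only the 2 groups compared (0.0485), the replicate block (0.0139), and leaving out Wnt3a replicate 3 (0.0412) or inhibitor replicate 3 (0.041). Of the 29 calls against vehicle 18 passed in all 16 alternatives, and besides those named the calls of ATF4, DDIT4, CHAC1, PHGDH, SHMT2, ALDH1L2 and CANX were lost in at least 1. Without vehicle replicate 3 those of ATF4, DDIT4, CHAC1, PHGDH and ALDH1L2 did not pass (edgeR adjusted p 0.0531 to 0.0875).

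Other genes of the same pathways, from lists chosen with the members, also moved both ways in inhibitor against Wnt3a. Over all genes tested 24.5% rose and 25.9% fell, so movement both ways is not particular to these lists, and their counts are read against those shares. Of 24 other genes of the ATF4 arm 6 rose and 7 fell, with a median log2 fold change of -0.12. GDF15, a secreted stress cytokine, had 0.481, 0.112 and 2.05 CPM with Wnt3a and 5.84, 38.4 and 38.6 with the inhibitor (log2 fold change 4.96, SE 1.01, edgeR adjusted p = 0.00251), and inhibitor replicate 1 was the lowest of its group. Without Wnt3a replicate 3, the highest of its group, the log2 fold change was 6.57 (edgeR adjusted p = 0.0016). ATF3, a stress-induced bZIP factor, rose from 13.3 ± 5.87 to 192 ± 28.2 CPM (log2 fold change 3.85, SE 0.378, edgeR adjusted p = 3.35e-05). BCAT1, the cytosolic transaminase of branched-chain amino acids, fell from 63.3 ± 11.2 to 22.7 ± 3.98 CPM (log2 -1.48, edgeR adjusted p = 0.000116) and GPT2, the mitochondrial alanine transaminase, from 28.6 ± 3.89 to 10.8 ± 1.49 CPM (log2 -1.40, edgeR adjusted p = 6.75e-05).

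Of 17 cytosolic aminoacyl-tRNA synthetases, which load amino acids onto tRNA, 5 rose and 4 fell, with a median of 0.15. QARS, for glutamine, rose from 175 ± 8.83 to 305 ± 13.9 CPM (log2 0.81, edgeR adjusted p = 3.71e-05) and SARS, for serine, from 184 ± 40.9 to 303 ± 15.6 (log2 0.72, edgeR adjusted p = 0.00456). MARS fell as given above, and IARS, for isoleucine, fell from 293 ± 31.8 to 185 ± 11.8 CPM (log2 -0.66, edgeR adjusted p = 0.0007). Of 14 genes of eIF2, its exchange factor, its other kinases and their regulators 5 rose and 1 fell. EIF2B2, a subunit of the exchange factor, rose from 33.9 ± 1.35 to 67.9 ± 5.98 CPM (log2 1.003, edgeR adjusted p = 4.59e-05), and EIF2AK2, the kinase PKR, from 90.9 ± 9.22 to 123 ± 7.5 (log2 0.44, edgeR adjusted p = 0.0136). The 1 fall was that of EIF2B1 (log2 -0.49, edgeR adjusted p = 0.0119). EIF2AK2 did not pass with library totals (edgeR adjusted p = 0.166) or without Wnt3a replicate 1 or inhibitor replicate 2 (0.057 and 0.0503), and EIF2B1 did not without inhibitor replicate 3 (0.0506). SARS did not pass on the TPM scale (limma-trend adjusted p = 0.0688).

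Of 20 other ER folding genes 6 rose and 6 fell, with a median of 0.03. DNAJB9, a co-chaperone that XBP1 induces, rose from 8.14 ± 1.16 to 48.4 ± 2.66 CPM (log2 fold change 2.57, SE 0.168, edgeR adjusted p = 4.56e-06) and the oxidase ERO1B from 8.21 ± 1.07 to 19.9 ± 6.47 (log2 1.27, edgeR adjusted p = 0.00123). TXNDC5, a disulfide isomerase, fell from 146 ± 20.6 to 78.9 ± 17.1 CPM (log2 -0.89, edgeR adjusted p = 0.00116) and UGGT1, which marks misfolded glycoproteins for another round of folding, from 99.5 ± 5.23 to 55.4 ± 4.09 (log2 -0.84, edgeR adjusted p = 4.97e-05). Of 24 genes of ER quality control, translocation and related factors 11 rose and 4 fell, with a median of 0.31. ATF6B, the relative of ATF6, rose from 65.1 ± 6.19 to 117 ± 0.328 CPM (log2 0.84, edgeR adjusted p = 5.12e-05). DERL3, of the Derlin family, fell from 4.07 ± 1.26 to 1.71 ± 0.321 CPM (log2 -1.24, edgeR adjusted p = 0.00745), as did MBTPS1, the site-1 protease that cuts ATF6, from 150.2 ± 5.09 to 97.5 ± 7.3 (log2 -0.62, edgeR adjusted p = 0.000227).

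**Figure D4:**
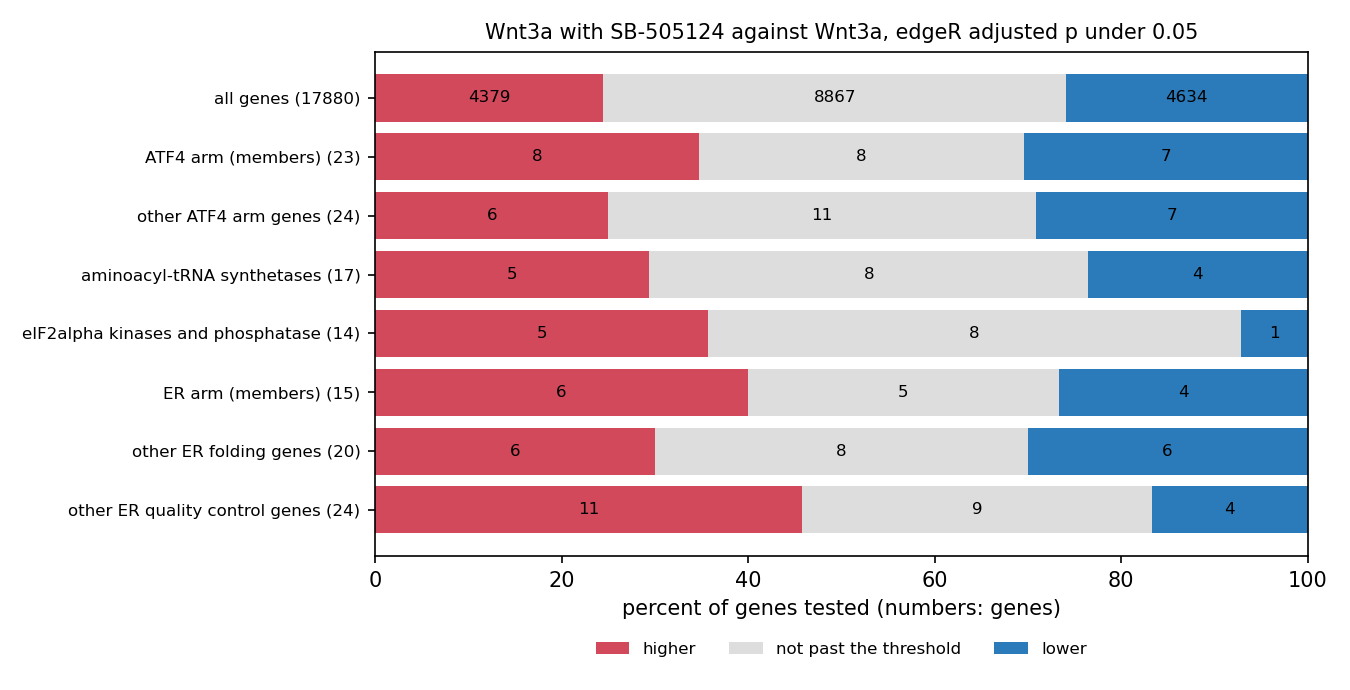
Bars give, for inhibitor against Wnt3a, the percent of tested genes of each list that were higher, lower or not past an edgeR adjusted p of 0.05, with the number of genes in each part and the list's size in brackets. The ATF4 arm has 8 higher and 7 lower of 23, the ER arm 6 and 4 of 15, and all genes 4379 and 4634 of 17880.

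Library totals were 28844348 to 42976799 counts, with the lowest in inhibitor replicate 1. TMM factors ranged from 0.876 to 0.914 among inhibitor libraries and from 1.02 to 1.10 among the rest. Between 23279 and 23335 genes had a count in inhibitor libraries, and between 25201 and 26876 in the rest. Mitochondrial genes took 3.85% to 5.12% of counts with the inhibitor and 4.04% to 4.87% without. Without inhibitor replicate 1, which stood highest for ATF4, DDIT3 and XBP1, the inhibitor comparison with Wnt3a kept each of these 3 calls. Ewing sarcoma markers (8 of 8 tested) summed to 2924 to 3310 TPM in vehicle, 2561 to 2987 with Wnt3a and 1619 to 2084 with the inhibitor. Of the 8, 4 fell against Wnt3a, where 25.9% of all genes tested fell. On log2(TPM + 1) the median log2 fold change of all genes in that comparison was -0.23. Markers of endothelial, leukocyte, epithelial and fibroblast cells (7 of 12 tested) summed to 23.2 to 32.2, 41.6 to 55.4 and 45.3 to 52.6 TPM, with CD3E at 0 counts in all 9 libraries. LUM alone made up 17.9 ± 0.837, 34.4 ± 6.38 and 35.8 ± 0.855 TPM of this. The part of these shifts in the results was not tested. Fewer cells of a kind and less RNA per cell cannot be told apart in such bulk libraries. SMAD7, an inhibitory target of TGF-β signalling, had 18 ± 0.916 CPM with Wnt3a and 14.9 ± 2.96 with the inhibitor (log2 fold change -0.27, SE 0.151, edgeR adjusted p = 0.157). It passed as lower with library totals (edgeR adjusted p = 0.014) and on the TPM scale (limma-trend adjusted p = 0.00304).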

How the data were processed

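The authors deposited 1 gene table per library. Per the submitters' processing notes, CASAVA 1.8.2, Trimmomatic 0.36, STAR 2.5.2a and RSEM 1.2.31 were used with hg38. For the annotation release and strand setting: not given in the sources used here. The tables hold the expected count per gene, TPM and FPKM as made by the authors with RSEM, per the file headers, and FPKM was not used. Expected counts were rounded, 45 rows that repeat a gene identifier were added to their partners, and filterByExpr kept 17880 genes. The 9 libraries entered 1 fit of 3 groups in edgeR 4.0.16 (TMM, quasi-likelihood F test, R 4.3.3), and p-values were adjusted by Benjamini-Hochberg over all genes tested, with a threshold of 0.05. The common biological coefficient of variation was 21.5%. The standard error is the size of the log2 fold change over the square root of F. The test was checked on simulated data. Coordinates are from GENCODE 29.

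All 38 members were named, and from each wider list up to 4 genes, the largest rises and falls past the threshold with at least 1 CPM, of which 1 is not reported here. AXIN2 served as a check of the ligand and SMAD7 of the inhibitor, and SMAD7 did not pass in the fit of all 9 libraries. Members and lists were chosen with earlier results of these data known. Alternatives were RLE factors, library totals, another filter, DESeq2 1.42.0, limma-trend (limma 3.58.1) on log2(TPM + 1) as deposited, a fit of the compared groups alone, a replicate block and leaving out each library. Depth ranged from 28844348 to 42976799 counts.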

Additional observations from a re-analysis of the deposited data

How the results depend on the processing

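For Wnt3a against vehicle the 4 counts of members, higher and lower in each arm, stayed at 0 in all 16 alternatives. For inhibitor against Wnt3a the 8 higher genes of the ATF4 arm became 5 with library totals and 4 with limma-trend on log2(TPM + 1), and the 4 lower genes of the ER arm became 7 and 8. Leaving out each library gave 4 to 7 lower genes of the ATF4 arm (4 without Wnt3a replicate 3) and 2 to 5 lower genes of the ER arm (2 without Wnt3a replicate 1 or 3 or inhibitor replicate 2 or 3). Against vehicle the 8 higher genes of the ATF4 arm became 5 with library totals and 5 with limma-trend, and its 8 lower genes 3 to 9 with a library left out (3 without vehicle replicate 3). These 2 alternatives leave out the TMM factors, which differ between the inhibitor and the other groups. They move the median of all genes to -0.31 and -0.23 against Wnt3a and to -0.27 and -0.17 against vehicle. Over all genes, the 4379 higher against Wnt3a became 2828 and 2293, and the 4462 higher against vehicle became 2722 with limma-trend. For Wnt3a against vehicle 71 higher and 4 lower became 247 and 52 in DESeq2 and 217 and 42 with genes of at least 1 count kept, and leaving out a library gave 20 to 122 higher (20 without vehicle replicate 3, 122 without inhibitor replicate 1) and 0 to 18 lower. CALR turned from 0.09 to -0.217 with limma-trend.

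Of 25 calls of single members against Wnt3a 13 passed in every alternative (DDIT3, PPP1R15A, PSAT1, PSPH, MTHFD2, ALDH1L2, CTH, XBP1, ERN1, ATF6, HERPUD1, CRELD2 and SDF2L1), and of 29 against vehicle 18. Over all members, comparisons and alternatives, 84 of 1824 values lost a call, 29 gained one, and 56 changed sign without a call on either side. With the replicate block the counts for the ATF4 arm against Wnt3a were 8 higher and 7 lower, and SLC7A5 passed as lower against vehicle (edgeR adjusted p = 0.0139). Some same-numbered libraries deviated together, with r = 0.596 for vehicle and Wnt3a replicate 2 and 0.557 for replicate 3 of the same groups. Others did not, with r = -0.0168 for vehicle and Wnt3a replicate 1 and -0.241 for Wnt3a and inhibitor replicate 2. Libraries of unlike number reached 0.436 (Wnt3a replicate 3 and inhibitor replicate 2). The numbers were not taken as pairs in the main fit, and pairing is not excluded. For the wider lists the same alternatives were added after seeing the data. With library totals the genes higher and lower against Wnt3a were 12 lower (for 7) of the other ATF4 genes, 3 higher (for 5) of the synthetases, 1 higher (for 5) and 3 lower (for 1) of the eIF2 genes, 3 higher (for 6) of the other folding genes, and 7 higher (for 11) and 7 lower (for 4) of the quality control genes. With limma-trend they were 5 higher and 12 lower (for 6 and 7) of the other ATF4 genes, 2 and 7 (for 5 and 4) of the synthetases, 2 and 4 (for 5 and 1) of the eIF2 genes, 2 and 10 (for 6 and 6) of the other folding genes, and 7 and 7 (for 11 and 4) of the quality control genes. With genes of at least 1 count kept 3 eIF2 genes were higher. Leaving out a library gave 3 higher synthetases without Wnt3a or inhibitor replicate 2, 2 lower ones without replicate 3 of either, and 2 higher eIF2 genes without Wnt3a replicate 1 or 2, and 0 lower ones without inhibitor replicate 3. The depth limits genes near 1 to 3 CPM most, such as NUPR1 and STC2.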
